A study of Mus musculus with 34 samples.

Results

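Somatostatin and 6 genes linked to the delta cells that make it were followed through bulk RNA-seq of mouse pancreatic islets after partial loss of beta cells. The 7 genes are Sst, Hhex, Rbp4, Ghsr, Sstr2, Sstr3 and Crhr2. They were taken by symbol from the deposited table of read counts, where they are 7 of 48709 genes, and all 7 were among the 17616 genes that passed the filter on low counts. Every library came from islets of mice with the genotype RIP-DTR HTZ, untreated mice included. RIP is the rat insulin promoter, which drives the receptor for diphtheria toxin (DT) in insulin-producing cells. Mice were given DT, streptozotocin (STZ, a toxin that beta cells take up) at 75 mg/kg, or neither.

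The labels give 9 groups. CTRL (n = 3) is untreated mice whose labels carry neither a time nor a diet. DT 5 DPA and DT 30 DPA (n = 4 each) were taken 5 and 30 days after DT. The 6 other groups were taken at 10 weeks on diets named SD and HFD in the labels. On SD these were CTRL SD (n = 3, untreated), DT SD (n = 4) and STZ SD (n = 4). On HFD they were CTRL HFD (n = 4, untreated), DT HFD (n = 3) and STZ HFD (n = 4). Age and sex are not given in the labels, and no label says whether islets were pooled over mice or that replicates came from separate mice, so p-values measure the spread between these samples.

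Delta cells are a minority endocrine cell of the islet. They release somatostatin, which acts nearby on alpha and beta cells through receptors coupled to inhibitory G proteins and lowers glucagon and insulin secretion. Delta cells in turn respond to ghrelin, the stomach hormone, through the receptor encoded by Ghsr, and to urocortin 3, which mouse beta cells release together with insulin, through the receptor encoded by Crhr2. Hhex encodes a homeodomain transcription factor needed to keep delta cells differentiated. Rbp4 encodes a retinol carrier that the liver secretes and that delta cells also make. In mouse islets Sstr2 is known mainly from alpha cells and Sstr3 from beta cells, so the list spans the delta cell and the cells it acts on.

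The genes lie on 6 chromosomes of GRCm38, the assembly also called mm10, as protein-coding genes in GENCODE release M21. Sst (ENSMUSG00000004366) is at chr16:23889573-23890958 and Hhex (ENSMUSG00000024986) at chr19:37434810-37440731. Rbp4 (ENSMUSG00000024990) is on the same chromosome as Hhex, at chr19:38116629-38125281. Ghsr (ENSMUSG00000051136) is at chr3:27371351-27378010 and Crhr2 (ENSMUSG00000003476) at chr6:55090049-55133016. Sstr2 (ENSMUSG00000047904) is at chr11:113619342-113626028, inside a stretch that Slc39a11 covers on the opposite strand, and Sstr3 (ENSMUSG00000044933) is at chr15:78537008-78544685. Whether reads were counted by strand was, for this table, not given in the sources used here, so reads of Sstr2 and of Slc39a11 may not be separable.

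Promoter sequence was read for all 7 genes, at 9 start sites, from RefSeq on GRCm38.p6, over 250 bases upstream of each start. The search was for TGACGTCA, the cAMP response element, which binds CREB and was first described in the somatostatin gene, for its shorter form TGACG, both on either strand, and for TATAAA, the TATA box, on the gene's own strand. The full element occurs once in Sst, 48 to 41 bases upstream, and once in Sstr2, 58 to 51 bases upstream. It was found in 508 of 32851 promoters (1.55%). TATAAA occurs in Crhr2, 39 to 34 bases upstream, and at the second start site of Rbp4, 28 to 23 bases upstream, against 7.59% of promoters. The 30 bases around each match are given below on the gene's strand, 5′ to 3′, with the motif in capitals, since Sst and Sstr2 share the longest motif searched. A match is a match of letters and was not measured as a binding site.
Sst, chr16:23890874-23890903, minus strand: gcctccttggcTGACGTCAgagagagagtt
Sstr2, chr11:113619258-113619287, plus strand: ccaagctgccgTGACGTCAcgggcgggggc
Crhr2, chr6:55133038-55133067, minus strand: cccagagccagcTATAAAtaacctggaggc
Rbp4, chr19:38124822-38124851, minus strand: tccccccggagcTATAAAggaccgacggcc
The shorter form TGACG is within the full element and was found once more at the second start site of Rbp4 and once at the first of Sstr3, against 17.8% of promoters. None of these motifs was found in the windows of Hhex and Ghsr.

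Total counts ranged from 11083117 to 18918348 per library. Libraries differed in RNA of other tissues. The summed level of 10 enterocyte genes was above 500 CPM (read counts scaled to library size) in 8 libraries. They were replicates 1, 2 and 4 of DT 5 DPA, replicates 1 and 4 of STZ SD, replicate 2 of CTRL, replicate 2 of DT 30 DPA and replicate 1 of DT HFD. Leaving these out leaves 1 library at 5 DPA and 2 in CTRL. The summed level of 5 myeloid genes was 4127 to 6224 CPM at 5 DPA and 207 to 1496 CPM elsewhere. In STZ HFD replicate 4 the summed level of 10 acinar genes was 527500 CPM.

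Per transcript length, Sst was by far the most abundant of the 7 genes. In the authors' TPM values its median over 33 libraries was 12400 (1140 to 30800), next to 130000 for Ins2, 35200 for Gcg and 7240 for Ppy. Rbp4 followed with a median of 141 TPM (37.4 to 305), Hhex with 39.1 (15.4 to 74.0) and Sstr3 with 37.3 (9.79 to 57.4). Sstr2 at 2.04 TPM, Ghsr at 1.09 and Crhr2 at 0.367 were close to the lower end of what these depths resolve. Crhr2 was counted 1 to 39 times per library and Ghsr 6 to 129 times, so their values carry large counting error.

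Sst had its lowest group mean 5 days after DT and was higher 30 days after DT. In CPM, relative to library sizes scaled by TMM (trimmed mean of M values), Sst stood at 4098, 1649 and 5677 in the 3 CTRL libraries. At 5 DPA it stood at 2117, 875, 786 and 299 CPM. At 30 DPA it stood at 3693, 6572, 7075 and 1856 CPM. CTRL and 5 DPA overlap because CTRL replicate 2, one of the libraries with enterocyte RNA, lies below DT 5 DPA replicate 1. Against 5 DPA, Sst was 4.71-fold higher at 30 DPA (2.24 on the log2 scale, SE 0.70, adjusted p = 0.0171, edgeR's quasi-likelihood test with Benjamini-Hochberg adjustment over all genes tested). The 5 DPA level did not pass against CTRL (log2 fold change of -1.90, SE 0.72, adjusted p = 0.13), and the value at 30 DPA was 0.33 (SE 0.72, adjusted p = 0.805). Both DT groups share the CTRL libraries.

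At 10 weeks the level of Sst spread most among DT mice. The 4 DT SD libraries stood at 2872, 731.5, 12110 and 1373 CPM and the 3 DT HFD libraries at 7771, 2747 and 906 CPM. The 4 STZ SD libraries lay close together at 4523, 4814, 4983 and 4867 CPM. The highest and the lowest of the 33 values thus both came from DT-treated mice, 12110 CPM in DT SD replicate 3 and 299 CPM in DT 5 DPA replicate 4. Untreated mice stood at 8175, 5104 and 5410 CPM in CTRL SD and at 6998, 5251, 3049 and 6083 CPM in CTRL HFD. The STZ HFD libraries stood at 4850, 2674, 3662 and 1933 CPM. All 4 STZ SD values were below the 3 CTRL SD values, but the difference did not pass (log2 fold change -0.38, SE 0.72, adjusted p = 0.971).

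Ordered by group mean, Sst stood at 6229 ± 1692 CPM (SD, n = 3) in CTRL SD, 5345 ± 1689 (n = 4) in CTRL HFD, 4799 ± 2464 (n = 4) at 30 DPA and 4797 ± 195.9 (n = 4) in STZ SD. Then DT SD followed at 4272 ± 5302 (n = 4), CTRL and DT HFD both at 3808 (± 2030 and ± 3553, n = 3 each), STZ HFD at 3280 ± 1264 (n = 4) and DT 5 DPA at 1019 ± 774 (n = 4). Every neighbouring pair in this order overlaps, so the order itself is not resolved beyond the spread. By count Sst ranked between the fifth and the 299th gene of a library, with a median rank of 22.

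**Figure D1:**
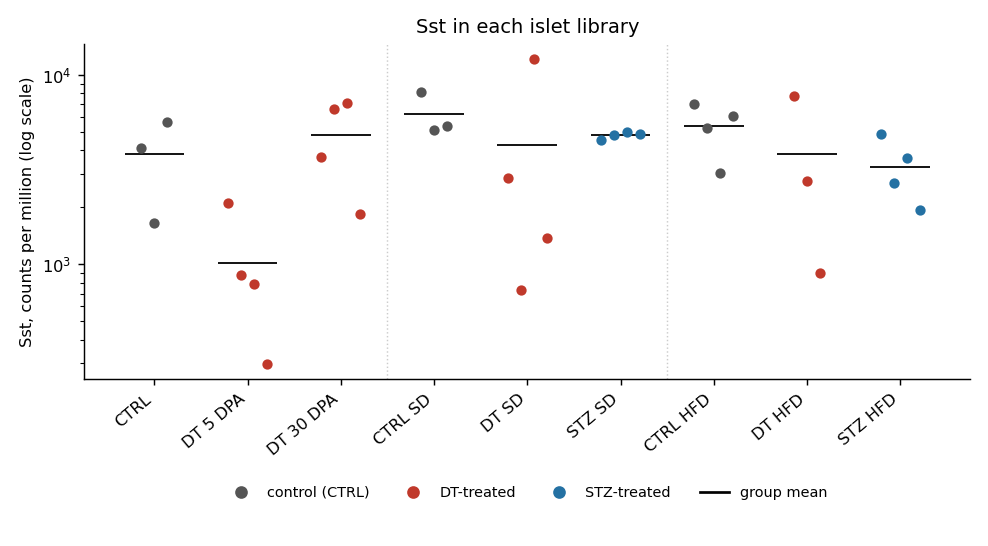
Sst in CPM (log scale) in each of 33 islet libraries, by group; a point is a library and a black line the group mean. The 4 DT 5 DPA libraries lie at 299 to 2117 CPM, and the 4 DT SD libraries spread from 731.5 to 12110 CPM.

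**Figure D2:**
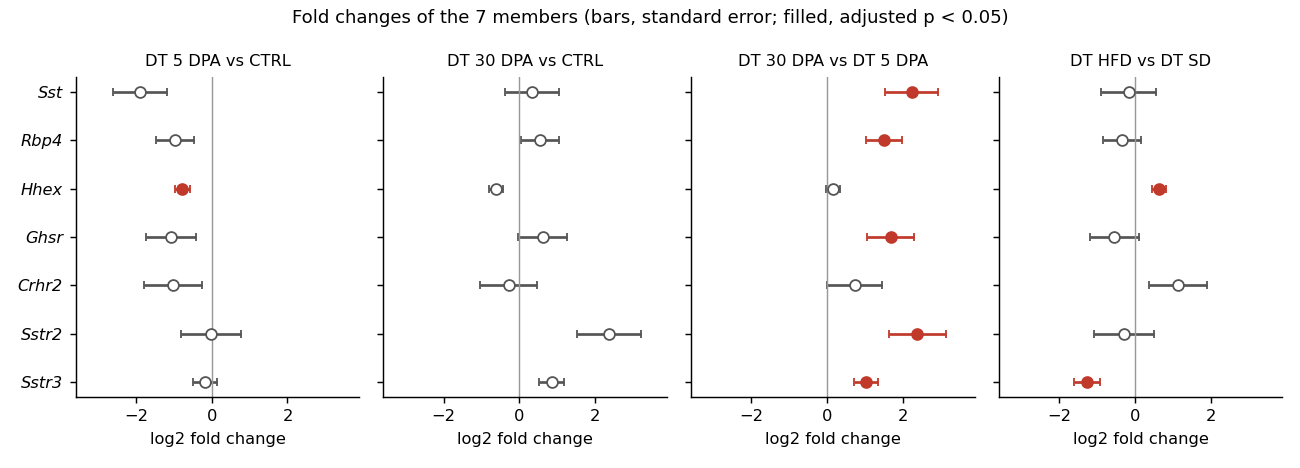
Log2 fold changes of the 7 members in 4 comparisons, with standard errors as bars; filled points have an adjusted p below 0.05 in edgeR's quasi-likelihood test. All 7 points lie below 0 at 5 DPA against CTRL, where Hhex passes, and all 7 above 0 at 30 DPA against 5 DPA, where 5 pass.

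At 5 DPA all 7 genes had log2 fold changes below 0 against CTRL, with a median of -0.967 beside -0.0522 over all genes tested. Of the 7, 1 passed, in the lower direction, where 5.39% of all genes tested passed, 1.59% lower and 3.8% higher. From 5 to 30 DPA all 7 had log2 fold changes above 0, with a median of 1.51 beside 0.02 over all genes, and 5 of 7 passed, where 30.5% of all genes tested passed, 16.5% higher and 13.9% lower. The 5 were Sst, Rbp4, Ghsr, Sstr2 and Sstr3. Other endocrine genes rose in the same comparison, among them 9 of 10 beta-cell markers and 6 of 8 alpha-cell markers, while 5 of 5 tested myeloid and 7 of 7 mesenchyme markers fell. How far these shifts in RNA of other cells entered the change in the 7 genes was not tested. In bulk islets, fewer delta cells and less RNA per delta cell cannot be told apart. Without the 8 libraries with enterocyte RNA, which leaves a single 5 DPA library, none of the 5 passed, and Sst had a log2 fold change of 2.41 with an adjusted p of 0.288. With DT 5 DPA replicate 4 left out, 1 member passed, Sstr3, and Sst had an adjusted p of 0.0572 (1.93). With DT 5 DPA replicate 1 left out 2 passed, and with DT 30 DPA replicate 2 or 3 left out 3 passed.

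The share of Sst among hormone transcripts sets it against other endocrine cells of the same library. It was taken as Sst counts over the summed counts of Ins1, Ins2, Gcg, Sst and Ppy. Ins1 and Ins2 gave most of this sum in every library, so the share also moves with transcripts of the cells that DT and STZ act on. In DT 30 DPA replicate 1, Ins1 was 25.4% and Ins2 59.2% of the sum, and the share of Sst was 1.63% at 3693 CPM of Sst. In the 3 CTRL libraries the share was 3.24%, 3.16% and 3.26%. At 5 DPA it was 4.63% in replicate 1 and 0.964%, 0.597% and 0.304% in the others, and at 30 DPA it was 1.63%, 4.11%, 3.10% and 0.572%. The 3 CTRL shares were nearly equal, and DT shares lay both above and below them. In DT SD the share was 1.01%, 0.284%, 3.93% and 0.576%, and in DT HFD 5.60%, 5.44% and 0.747%. CTRL SD lay at 2.70% to 3.62%, CTRL HFD at 3.51% to 4.90%, STZ SD at 2.17% to 4.85% and STZ HFD at 1.82% to 3.25%. No untreated or STZ library was below 1.82%, while 9 of the 15 DT libraries were, a count made after the values were seen. Each DT group also held a library at 3.93% or above.

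The mean log2 share was compared in 13 pairs of groups by two-sided exact permutation, with adjustment over the 13. None passed, and with groups this small none could have passed. The smallest p was that of STZ HFD against CTRL HFD, where all 4 STZ shares were below all 4 CTRL shares (log2 difference -0.723, exact permutation p = 0.0286, adjusted p = 0.371). That p is the smallest 4 against 4 can give, and 3 against 4 cannot go below 0.0571. With these floors an adjusted p below 0.05 was out of reach, so the lack of a pass decides nothing. From 5 to 30 DPA the log2 share differed by 0.967 (exact permutation p = 0.4, adjusted p = 0.578). Sst in CPM had passed between those groups in the edgeR test, which has no such floor. Against CTRL, the share differed by -1.76 at 5 DPA (exact permutation p = 0.229, adjusted p = 0.495).

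Set against Gcg alone, the glucagon gene of alpha cells, Sst counts were 0.228, 0.224 and 0.216 of Gcg counts in CTRL. They were 0.171, 0.0677, 0.0515 and 0.0320 of Gcg at 5 DPA, and 0.123, 0.209, 0.173 and 0.0587 at 30 DPA. Both DT groups lay wholly below CTRL, by -1.75 and -0.808 on the log2 scale, and so did STZ SD below CTRL SD, by -0.387. Each of these has the smallest p that 3 against 4 allows (exact permutation p = 0.0571, adjusted p = 0.248), so none could pass. STZ HFD lay 0.089 above CTRL HFD on this ratio, opposite to its lower share of all hormones.

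**Figure D3:**
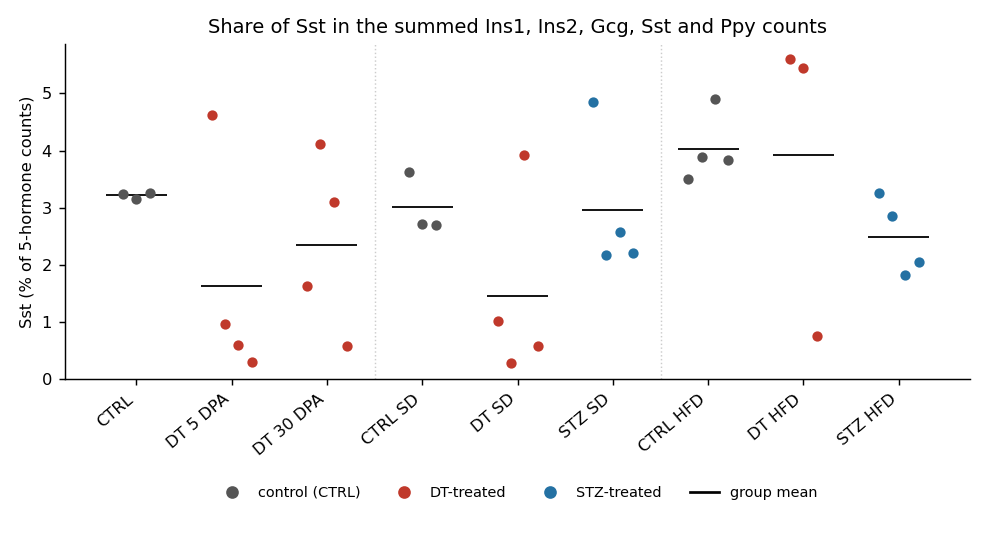
Sst as a percentage of the summed Ins1, Ins2, Gcg, Sst and Ppy counts in each of 33 libraries, by group; points are libraries and black lines group means. The 3 CTRL points sit at 3.16% to 3.26%, and the 4 DT SD points at 0.284% to 3.93%.

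Across the 33 libraries the genes whose log2 CPM followed Sst most closely, of 13176 compared, were Pyy (Pearson r = 0.933), Calb1 (0.926), Rbp4 (0.921), Olfm3 (0.913), Dpp6 (0.912), Efnb3 (0.904), Ppy (0.903), Ghsr (0.902), Ly6h (0.894) and Dbpht2 (0.860). Pyy and Ppy encode peptide YY and pancreatic polypeptide, hormones of the PP cell and its relatives. The libraries share groups and differ in RNA of other tissues, so these values describe the set and carry no test. After subtracting group means the values for Rbp4 (0.903), Ghsr (0.889) and Ppy (0.881) were little lower. Ppy ranged far wider than Sst. It was 1208 CPM in DT 5 DPA replicate 1 and 13.3, 9.78 and 5.60 CPM in the others, and in DT SD it was 187, 29.5, 7798 and 170 CPM. In both groups the library highest in Ppy was also the highest in Sst. By contrast r with Sst was 0.753 for Gcg, 0.190 for Ins2, 0.357 for Hhex and 0.432 for Sstr3.

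**Figure D4:**
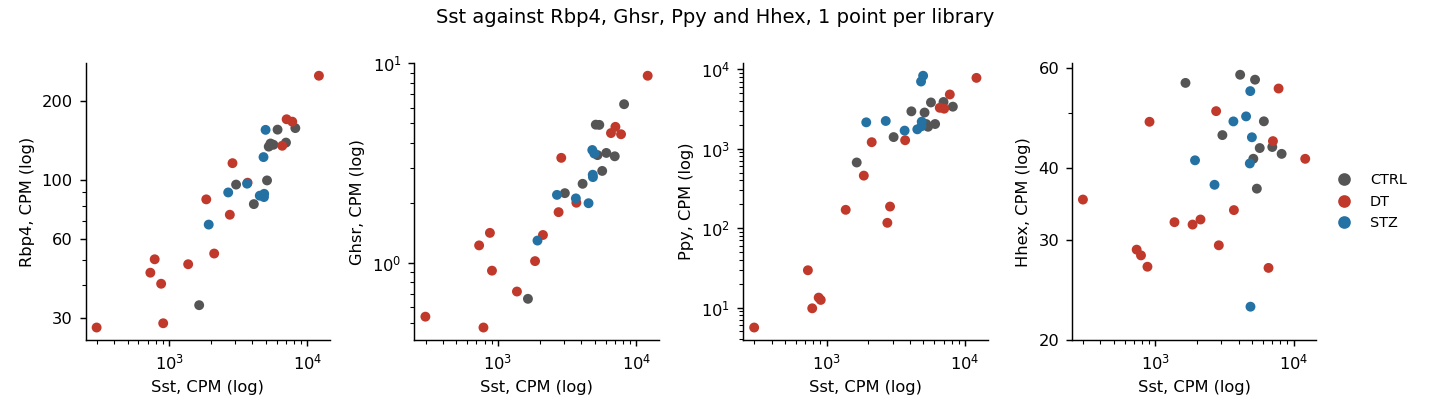
Sst against Rbp4, Ghsr, Ppy and Hhex in CPM, both axes on log scales, 1 point per library for 33 libraries, coloured by treatment. Rbp4 (r = 0.921), Ghsr (0.902) and Ppy (0.903) rise with Sst, and Hhex (0.357) spreads widely at any level of Sst.

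Rbp4, the retinol carrier, followed Sst over a smaller range. It stood at 81.3, 33.7 and 136 CPM in CTRL, at 52.8, 40.6, 50.2 and 27.7 CPM at 5 DPA, and at 97.9, 135, 170 and 84.7 CPM at 30 DPA. The 30 DPA libraries lay wholly above the 5 DPA libraries, and Rbp4 was 2.85-fold higher (log2 fold change 1.51, SE 0.47, adjusted p = 0.0183, edgeR). Against CTRL it did not pass at 5 DPA (-0.97, SE 0.50, adjusted p = 0.293) or at 30 DPA (0.54, SE 0.51, adjusted p = 0.53). For every 1000 counts of Sst, the 3 CTRL libraries held 19.8 to 24.0 counts of Rbp4 and the 4 libraries at 5 DPA 25.0 to 92.7. At 10 weeks Rbp4 in DT SD was 116, 44.7, 249 and 48.1 CPM, with the same library highest as for Sst. Of 6 retinoid carriers tested, Rbp4 among them, 2 rose from 5 to 30 DPA, where 16.5% of all genes tested passed higher. These were Rbp4 and Ttr (transthyretin, 1.58, SE 0.34, adjusted p = 0.00153). Without the enterocyte libraries the call of Rbp4 was lost (1.21, adjusted p = 0.429), and likewise without DT 5 DPA replicate 4 (adjusted p = 0.0598) or DT 30 DPA replicate 3 (0.0541). The 4 hepatocyte markers, of a tissue that also makes Rbp4 and Ttr, summed to 0.722 to 4.81 CPM at 5 DPA and 3.39 to 5.89 CPM at 30 DPA, and their part in the rise of Rbp4 was not tested.

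Ghsr, the ghrelin receptor, was scarce and followed Sst. It stood at 2.49, 0.659 and 2.89 CPM in CTRL, at 1.38, 1.41, 0.473 and 0.536 CPM at 5 DPA, and at 2.00, 4.47, 4.81 and 1.02 CPM at 30 DPA. The groups at 5 and 30 DPA overlap, and the 5 DPA values rest on 6 to 21 counts. Ghsr was 3.22-fold higher at 30 DPA than at 5 DPA (1.69 on the log2 scale, SE 0.62, adjusted p = 0.0407, edgeR). This call is close to the threshold and was lost without a filter on low counts (adjusted p = 0.0644), when only the 2 groups were fitted (0.0688), without the enterocyte libraries (2.43, adjusted p = 0.249) and without DT 5 DPA replicate 1, 3 or 4 or DT 30 DPA replicate 2 or 3. Of the 4 genes of the ghrelin axis tested, Ghsr among them, 2 rose from 5 to 30 DPA, beside 16.5% of all genes tested. The other was Mrap2, which encodes an accessory protein of melanocortin and ghrelin receptors (2.99, SE 0.83, adjusted p = 0.00849), at 0.263 to 2.60 CPM at 5 DPA and 2.57 to 28.0 CPM at 30 DPA. Ghrl, ghrelin itself, did not pass (0.15, SE 0.79, adjusted p = 0.899). Ghsr had its highest group mean in CTRL SD, at 6.24, 4.93 and 4.92 CPM, although the highest library was in DT SD (8.67 CPM). CTRL SD lay wholly above CTRL HFD (2.23 to 3.56 CPM) and STZ SD (1.99 to 3.68 CPM), yet neither difference passed (-0.76, adjusted p = 1.0, and -0.86, adjusted p = 0.772).

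Crhr2, the urocortin receptor, had too few counts to resolve a change. It stood at 1.33, 0.360 and 2.40 CPM in CTRL, at 0.919, 0.847, 0.552 and 0.358 CPM at 5 DPA, and at 1.03, 1.98, 1.15 and 0.291 CPM at 30 DPA. The log2 fold change was -1.02 (SE 0.77, adjusted p = 0.501, 95% interval -2.60 to 0.562) at 5 DPA against CTRL and 0.73 (SE 0.73, adjusted p = 0.467, interval -0.757 to 2.22) from 5 to 30 DPA. The first interval includes a 4-fold fall and the second a 4-fold rise. Its ligand gene Ucn3, a marker of mature mouse beta cells, was abundant at a median of 294 TPM and rose from 5 to 30 DPA (1.38, SE 0.41, adjusted p = 0.0136). It was the 1 of 3 tested genes of the urocortin and CRH family to do so, beside 16.5% of all genes tested. Crhr1 did not pass (1.06, SE 0.74, adjusted p = 0.294). No gene was closely like Crhr2, with Dpp6 at r = 0.549, Cacng4 at 0.534 and Neurog3 at 0.528.

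Hhex was lower at 5 DPA than in CTRL and did not pass between 5 and 30 DPA. It stood at 58.4, 56.5 and 43.4 CPM in CTRL and at 32.6, 26.9, 28.2 and 35.3 CPM at 5 DPA, with no overlap. It was 1.72-fold lower at 5 DPA (-0.78 on the log2 scale, SE 0.20, adjusted p = 0.0155, edgeR) and was the only member that passed there. At 30 DPA it stood at 33.8, 26.8, 44.7 and 31.9 CPM, and from 5 to 30 DPA it did not pass (0.16, SE 0.18, adjusted p = 0.539), with a 95% interval of -0.217 to 0.533. The 30 DPA level against CTRL did not pass either (-0.62, SE 0.20, adjusted p = 0.0705). The fall at 5 DPA was not called when only these 2 groups were fitted (adjusted p = 0.0659), without the enterocyte libraries (-0.85, adjusted p = 0.113), without CTRL replicate 1 (0.0841) or without DT 5 DPA replicate 2 (0.0527). The summed hepatocyte markers stood at 189, 3.42 and 21.1 CPM in CTRL and at 0.722 to 4.81 CPM at 5 DPA, and 3 of the 4 were called lower there; their part in the fall of Hhex was not tested. Of 12 islet transcription factors tested at 5 DPA, 1 fell, Hhex, beside 1.59% of all genes tested. From 5 to 30 DPA 10 of the 12 rose, beside 16.5% of all genes tested. Among the 10 were Isl1 (1.55), Pax6 (1.47), Foxa2 (1.41) and Rfx6 (1.36), while Hhex did not pass.

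The diet groups of DT mice gave the other call for Hhex, in the opposite direction to Sstr3. Hhex stood at 29.3, 28.8, 41.6 and 32.2 CPM in DT SD and at 55.2, 50.4 and 48.3 CPM in DT HFD, with no overlap, a 1.56-fold rise (log2 fold change 0.64, SE 0.20, adjusted p = 0.0217, edgeR). In untreated mice too, Hhex lay wholly higher on HFD (43.62 to 57.25 CPM) than on SD (36.87 to 42.43 CPM). That difference did not pass (0.27, SE 0.20). The interaction of DT and diet was 0.364 (adjusted p = 0.487, edgeR), so the diet effect is not shown to differ with DT. In DT HFD against DT SD 2 of 7 members passed, Hhex and Sstr3, where 23.5% of all genes tested passed, 15.0% higher and 8.46% lower. The call of Hhex was lost when DT HFD replicate 1 (adjusted p = 0.0519), DT HFD replicate 2 (0.116), DT SD replicate 1 (0.0651) or DT SD replicate 2 (0.0523) was left out. Without DT HFD replicate 2, 0 of 18068 genes tested passed. Of 9 lymphocyte markers 6 rose in the same comparison, and their summed level was 229 to 1665 CPM in DT SD and 2484 to 9029 CPM in DT HFD. Over the 33 libraries Hhex had a Spearman rho of 0.489 with that sum and a Pearson r of 0.641 with the B-cell gene Cd79a, which was 0.335 after subtracting group means. With the endothelial gene Pecam1 its r was 0.523, and 0.617 after subtracting group means, though rho with the summed endothelial markers was -0.014. Its r with Sst was 0.357. Hhex is known from blood-forming, endothelial and liver cells as well as from delta cells, and the part of such cells in its level was not tested. The genes most like it were Ptp4a3 (r = 0.788), Trp53i11 (0.785) and Foxp1 (0.785). After subtracting group means these were 0.562, 0.523 and 0.491, at ranks 34, 69 and 145, so other genes were then more like it.

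**Figure D5:**
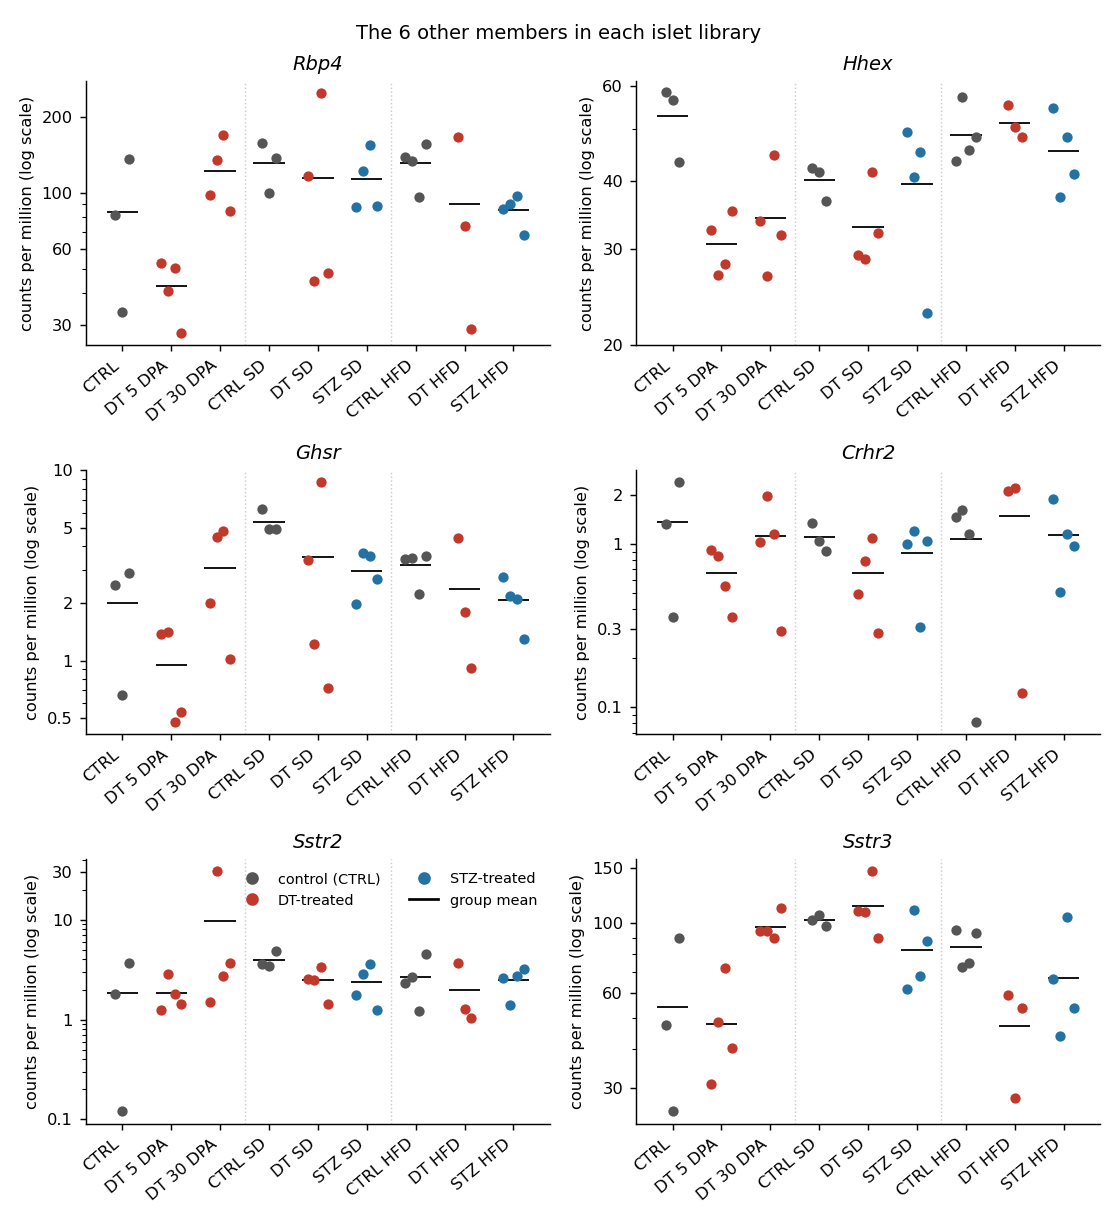
Rbp4, Hhex, Ghsr, Crhr2, Sstr2 and Sstr3 in CPM (log scales that differ between panels) in each of 33 libraries, by group; points are libraries and black lines group means. Hhex at 5 DPA (26.9 to 35.3 CPM) lies wholly below CTRL (43.4 to 58.4 CPM), and 1 library of DT 30 DPA reaches 30.6 CPM of Sstr2.

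Sstr3, the receptor known from mouse beta cells, rose between 5 and 30 DPA and was lower in DT HFD than in DT SD. It stood at 30.9, 48.5, 72.3 and 40.3 CPM at 5 DPA and at 94.6, 94.3, 89.8 and 112 CPM at 30 DPA, without overlap. It was 2.04-fold higher at 30 DPA (a log2 fold change of 1.03 with an SE of 0.31, adjusted p = 0.0136, edgeR). CTRL stood at 47.6, 25.3 and 89.8 CPM, just below the lowest 30 DPA library, and neither time passed against it (-0.18, SE 0.33, adjusted p = 0.827 at 5 DPA, and 0.85, SE 0.33, adjusted p = 0.117 at 30 DPA). The rise was lost without the enterocyte libraries (0.44, adjusted p = 0.629) and without DT 5 DPA replicate 1 (adjusted p = 0.0606).

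In DT SD, Sstr3 stood at 110, 109, 146 and 90.0 CPM, and in DT HFD at 59.4, 28.0 and 54.0 CPM. These groups do not overlap, and Sstr3 was 2.41-fold lower on HFD (log2 fold change -1.27, SE 0.34, adjusted p = 0.0115). The call was lost with the acinar score as a covariate (-1.04, adjusted p = 0.0614) and without DT HFD replicate 2 (-1.003, adjusted p = 0.13), the library with the lowest value. Without that library 0 of 18068 genes tested passed in this comparison, beside 4136 of 17616 with it, so this loss was not particular to Sstr3. In untreated mice the same diet step gave -0.28 (SE 0.33, adjusted p = 1.0), with CTRL SD at 103, 106 and 97.8 CPM and CTRL HFD at 95.6, 72.7, 74.8 and 93.5 CPM. The difference between the 2 diet effects, the interaction of DT and diet, was -0.99 (SE 0.47, adjusted p = 0.312), so the diet effect is not shown to differ with DT. Beta-cell markers fell as well, 7 of 10, in DT HFD against DT SD, where 8.46% of all genes tested passed lower. Their summed level was 232500 to 254700 CPM in DT SD and 30080 to 111300 CPM in DT HFD. Over 33 libraries Sstr3 followed genes of the secretory and neuroendocrine programme, Scg3 (r = 0.961), Maged1 (0.960) and Kcnip1 (0.959), which by Spearman's rho ranked 1, 29 and 15, and had r = 0.848 with Ins1.

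The level of Sstr2, the receptor known from alpha cells, rested on 1 library. At 30 DPA it stood at 1.48, 30.6, 2.71 and 3.71 CPM, where 30.6 CPM is 479 counts in replicate 2 against 2 to 75 counts in every other library. At 5 DPA it stood at 1.25, 2.90, 1.81 and 1.43 CPM, and in CTRL at 1.79, 0.120 and 3.69 CPM. The difference between 5 and 30 DPA passed (log2 fold change 2.38, SE 0.75, adjusted p = 0.0188, edgeR), but without DT 30 DPA replicate 2 it was 0.51 with an adjusted p of 0.571. The call was also lost without DT 5 DPA replicate 1 or 4, without the enterocyte libraries (0.52, adjusted p = 0.722) and when only the 2 groups were fitted (2.31, adjusted p = 0.0975). The same library held 1743 CPM of 5 sympathetic neuron markers, where the other libraries held 17.9 to 113 CPM. Dbh, the enzyme that makes noradrenaline, stood at 858 CPM there and at 1.68 to 2.71 CPM in the other 30 DPA libraries, and Th, which makes its precursor, at 383 CPM against 12.1 to 51.1 CPM. Mrap2 was highest in this library too, at 28.0 CPM. Over 33 libraries the genes most like Sstr2 by Pearson's r were Ache (0.844), Nefm and Stmn3 (0.827), all known from neurons. By Spearman's rho, which gives a single high library less weight, Ache ranked 2, Nefm 84 and Stmn3 64. The part of neuronal RNA in the change of Sstr2 was not tested beyond leaving that library out.

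Of the other somatostatin receptors only Sstr1 passed the filter on low counts, at a median of 0.467 TPM, and did not pass from 5 to 30 DPA (0.73, SE 0.74, adjusted p = 0.477). Sstr4 had a median of 0.0688 TPM and Sstr5 was listed at a median of 0. Of the 4 tested genes of the somatostatin family, 3 rose in that comparison, all of them members already counted above. The background for this count and the next 2 lists is 16.5% of all genes tested that passed higher and 13.9% lower. Of 4 proteases and peptidases that process prosomatostatin and other prohormones, 3 rose, Pcsk1 (1.29, SE 0.37, adjusted p = 0.0108), Pcsk2 (1.39, SE 0.32, adjusted p = 0.00265) and Cpe (1.23, SE 0.33, adjusted p = 0.00678), while Furin did not pass (-0.26, adjusted p = 0.19). These 3 enzymes serve all islet hormones. The same 3 fell in DT HFD against DT SD (-1.55, -1.003 and -1.25, respectively), where 8.46% of all genes tested passed lower. Of 9 inhibitory G protein and GIRK channel genes, through which somatostatin receptors signal, 5 rose, Gnaz (1.44), Gnao1 (1.53), Kcnj3 (1.55), Kcnj6 (1.69) and Gnai1 (1.06), and Gnai2 fell (-0.38, adjusted p = 0.0381).

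Among 8 further genes reported as delta-cell markers, 2 rose from 5 to 30 DPA, Spock3 (2.20, SE 0.51, adjusted p = 0.00263) and Edn3 (1.44, SE 0.34, adjusted p = 0.00286), and 1 fell, Prg4. These counts stand beside 16.5% of all genes tested that passed higher and 13.9% lower, so the list as a whole is near the background. Prg4, lubricin, went the opposite way to Sst. It stood at 76.6 to 466 CPM at 5 DPA, 0.728 to 7.42 CPM at 30 DPA and 2.20 to 4.12 CPM in CTRL (6.22, SE 0.76, adjusted p = 9.83e-06 against CTRL). Prg4 is also made by mesothelial and joint-lining cells, and all 7 mesenchyme markers had log2 fold changes above 0 at 5 DPA, 4 of them called. Ffar4, Ptprz1, Lepr, Bche and Cd24a did not pass in any comparison of CTRL and the 2 DT times.

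In the other 12 of 15 comparisons edgeR called 0 of 7 members. Of those 84 tests, 6 had an unadjusted p under 0.05 in edgeR. They were Hhex, Sstr2 and Sstr3 at 30 DPA against CTRL, Sstr2 in DT SD against DT 30 DPA, and Sstr3 in DT HFD against CTRL HFD and in the interaction of DT and diet. At that threshold stood 4465 of all 17616 genes tested at 30 DPA against CTRL and 1939 in DT SD against DT 30 DPA. There were 2104 in DT HFD against CTRL HFD and 2751 in the interaction, so such values were common. Of the 6, DESeq2 called 2, Hhex (-0.64, adjusted p = 0.0312) and Sstr2 (2.36, adjusted p = 0.0311) at 30 DPA against CTRL. It called no member in the other 11 comparisons. How many of all genes DESeq2 called is not given here, so these 2 calls have no background share beside them. Without the enterocyte libraries the value of Sstr2 there was -0.064 in edgeR. With CTRL replicate 3 left out, edgeR called 3 members at 30 DPA against CTRL, Hhex, Sstr2 and Sstr3. In that fit 4273 of all 18056 genes tested were called, beside 41 of 17616 with every library kept, so calls rose across all genes. Among all genes tested the share called was 0.233% at 30 DPA against CTRL, 0.0568% in DT SD against DT 30 DPA, 0.0341% in DT SD against CTRL SD and 0.00568% both in STZ SD against CTRL SD and in DT HFD against CTRL HFD. It was 0.471% in STZ HFD against CTRL HFD, 0.136% in STZ HFD against STZ SD, 2.56% in STZ SD against DT SD and 0.341% in STZ HFD against DT HFD. It was 0% in CTRL HFD against CTRL SD and in both interactions with diet.

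At 10 weeks after STZ the log2 fold changes of the 7 genes lay between -0.86 (Ghsr) and -0.03 (Hhex) in STZ SD against CTRL SD, all 7 below 0, with a smallest adjusted p of 0.772. On HFD they lay between -0.70 (Sst) and 0.08 (Crhr2), with 6 of 7 below 0 and a smallest adjusted p of 0.608. At 10 weeks after DT, on SD, 6 of 7 were below 0, from -0.73 (Crhr2) to 0.15 (Sstr3), with a smallest adjusted p of 0.724. After DT on HFD, 5 of 7 were below 0 against CTRL HFD, from -0.84 (Sstr3) to 0.45 (Crhr2). The smallest adjusted p there was 0.37 (edgeR), that of Sstr3, and Sst was at -0.489 (adjusted p = 0.764). For Sst the 95% intervals of the other 3 effects were -1.84 to 1.09 for STZ on SD, -2.08 to 0.667 for STZ on HFD and -2.01 to 0.921 for DT on SD. All 3 intervals include a 2-fold fall.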

How the data were processed

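Islet RNA of 34 libraries was sequenced. The labels' protocols name the RNeasy Mini and QIAseq stranded mRNA kits, and the submitters' processing notes name mm10. The aligner, counter, strandedness of counting and gene models were not given in the sources used here. Per the file headers, the deposited data are unnormalized total counts per gene, which entered every test, beside the authors' RPKM values, which were not used, and the authors' TPM values, used only to compare genes. A further deposited column headed CPM sums to other totals, is treated as a score and was not used. The table held 0 columns of other samples. Of its identifiers 99.26% were found in GENCODE M21.

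The labels placed 33 libraries in 9 groups. A library titled CTRL HFD with the treatment label DT entered no comparison. Pairs of libraries within a group differed beyond counting noise (smallest chi-square per degree of freedom 27.27).

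Counts were filtered by filterByExpr of edgeR 4.0.16 (R 4.3.3; minimum count 10, total 15), scaled by TMM and fitted once over 33 libraries with the quasi-likelihood model, with group as the only factor. Adjusted p is Benjamini-Hochberg over 17616 genes, called below 0.05, in 15 comparisons. Shares were tested by two-sided exact permutation in 13 pairs of groups (scipy 1.17.1). Likeness is Pearson's r of log2 CPM (prior count 2). Total counts were 11083117 to 18918348. At these depths counting error is small for Sst and large for Ghsr, Sstr2 and Crhr2. Scripts were checked on simulated counts.

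The genes and lists were chosen with earlier results of these data known. Named genes are the 7 members in every comparison, of each context list up to 6 that pass, ordered by adjusted p, and the genes most like each member (10 for Sst, 3 for the others). Genes named that do not pass, and the marker genes Dbh, Th, Cd79a, Pecam1 and Ppy, fall outside this rule and were chosen after their values were seen. Some genes of the context lists are not reported here. Alternatives were RLE size factors, no filter, a stricter filter, scaling without hormone genes, an acinar covariate, a replicate block, the DESeq2 1.42.0 Wald test, the compared groups alone, libraries above 500 CPM of enterocyte genes left out, and each library left out in turn (limma 3.58.1 loaded with edgeR).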

Additional observations from a re-analysis of the deposited data

Results flagged for a closer look

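Values of each member in CPM and the Sst share were examined for 1 library standing apart in the 6 groups of 4, 48 sets in all. A set was marked where the gap from the highest or lowest library to its neighbour, divided by the range, passed Dixon's 95% critical value. Chance marks about 1 in 20 such sets, and 4 were marked. Sstr2 was 30.6 CPM in DT 30 DPA replicate 2 and 1.48 to 3.71 CPM in the others. The Sst share was 4.63% in DT 5 DPA replicate 1 beside 0.304% to 0.964%, and 4.85% in STZ SD replicate 1 beside 2.17% to 2.57%. These 3 libraries are among the 8 with enterocyte RNA, whose part was not tested. Ghsr was 2.23 CPM in CTRL HFD replicate 4 beside 3.42 to 3.56 CPM.

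The effects of DT at 5 and at 30 days differed for 5 members, tested as the contrast of the 2 times, which cancels the CTRL libraries they share. The log2 differences were 2.24 for Sst, 1.51 for Rbp4, 1.69 for Ghsr, 2.38 for Sstr2 and 1.03 for Sstr3, with edgeR's adjusted p between 0.0136 and 0.0407. These are the same 5 calls given above for 30 DPA against 5 DPA, with the same limits, and 30.5% of all genes tested passed in this contrast. The call of Sstr2 rested on DT 30 DPA replicate 2, without which the difference was 0.51 (adjusted p = 0.571, edgeR). The effects against CTRL themselves did not pass for these 5 at either time.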

How the results depend on the processing

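The number of members called changed by setting in 4 of 15 comparisons. At 5 DPA against CTRL it went from 1 to 0 without the enterocyte libraries and to 0 in a fit of the compared groups alone. From 5 to 30 DPA it went from 5 to 0 without the enterocyte libraries and to 3 with the compared groups alone. At 30 DPA against CTRL it went from 0 to 2 with DESeq2, whose share of all genes called is not given here. In DT HFD against DT SD it went from 2 to 1 with the acinar covariate. With 1 library left out the counts ranged from 0 to 1, from 1 to 5, from 0 to 3 and from 0 to 2 in these comparisons. The lowest counts came without CTRL replicate 1 or DT 5 DPA replicate 2, without DT 5 DPA replicate 4, and without DT HFD replicate 2. In DT HFD against DT SD without DT HFD replicate 2, 0 of all 18068 genes tested passed. The 3 came without CTRL replicate 3, where 4273 of all 18056 genes tested passed. The cause was not tested.

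Signs turned only where nothing had passed. Without the enterocyte libraries, which removes 8 libraries, the log2 fold change at 30 DPA against CTRL was -0.047 for Ghsr, -0.223 for Sst and -0.064 for Sstr2, and Sstr3 at 5 DPA against CTRL was 0.078. Sstr2 at 5 DPA against CTRL was 0.016 with RLE factors, 0.038 without a filter, 0.111 with the replicate block and 0.017 with DESeq2. With 1 library left out, signs turned for Crhr2 (-0.733 to 0.396) and Sst (-0.026 to 0.740) at 30 DPA against CTRL, and for Sstr2 (-0.569 to 0.934) and Sstr3 (-0.518 to 0.395) at 5 DPA against CTRL. They also turned in DT HFD against DT SD for Ghsr (-1.36 to 0.433), Rbp4 (-1.15 to 0.368), Sst (-1.23 to 1.20) and Sstr2 (-1.10 to 0.017).

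The log2 Sst share turned sign with Sst over Gcg in CTRL HFD against CTRL SD (-0.334), STZ HFD against CTRL HFD (0.089), STZ HFD against DT HFD (0.436) and STZ HFD against STZ SD (0.143), and with Sst over insulin in STZ SD against CTRL SD (0.009). Without the enterocyte libraries it turned in STZ HFD against DT HFD (0.266) and STZ HFD against STZ SD (0.039). With 1 library left out it ranged from -0.989 to 0.464 in DT HFD against CTRL HFD, -1.19 to 0.266 in STZ HFD against DT HFD, -0.338 to 0.07 in STZ HFD against STZ SD and -0.37 to 0.038 in STZ SD against CTRL SD.

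Same-numbered replicates deviated together in some pairs but not throughout any comparison, with correlations from -0.178 to 0.647 and in no comparison all above 0.1. At 5 DPA against CTRL they were 0.084, 0.400 and 0.647, and in STZ HFD against DT HFD 0.251, 0.440 and 0.065. With the replicate number as a block the members called were the same, and all genes called went from 949 to 878 at 5 DPA, from 5371 to 5105 between the DT times, from 4136 to 3861 in DT HFD against DT SD and from 41 to 0 at 30 DPA against CTRL. Of the other 77 pairs of member and comparison, 34 changed sign under some alternative and 0 passed under any. Of the 10 genes most like Sst, 9 stayed with Spearman's rho and 9 within groups.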

Other observations

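The library titled CTRL HFD replicate 1 with the treatment label DT, which belongs to no group here, held 14288356 counts. Of these 41438 were Sst, 640 Hhex, 780 Rbp4, 41 Ghsr, 27 Sstr2, 741 Sstr3 and 16 Crhr2. Its Sst share of hormone counts was 3.91%, which lies within the ranges of both CTRL HFD (3.51% to 4.90%) and DT HFD (0.747% to 5.60%). Scaled to total counts alone, Sst was 2900 CPM there, beside 3810 to 6890 in CTRL HFD and 997 to 9270 in DT HFD.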
